A study of Mus musculus with 15 samples.

Results

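The interferon regulatory factor (IRF) family was followed through 8 genes, Irf1, Irf2, Irf3, Irf4, Irf5, Irf7, Irf8 and Irf9, of the 19938 genes measured in 5 sorted populations of dendritic cells (DCs) and macrophages. The genes were listed by name, with no measured value in the rule. Each was read from the probeset that carried its symbol alone and had the highest mean over all arrays. Irf1 had 2 such probesets and each of the other 7 genes had 1, so all 8 members had a value on every array.

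RNA was measured on 15 Affymetrix Mouse Gene ST arrays, 3 for each population, and every population came from the small intestinal lamina propria of healthy, untreated WT mice in the steady state. DCs, all CD64-, were split into 4 subsets, namely CD103+CD11b+ and CD103+CD11b- DCs, which carry CD103, and CD103-CD11b+ and CD103-CD11b- DCs, which lack it, and the remaining population was CD64+ macrophages, sorted as Ly6C- MHCII+ CD11b+ cells. Per the methods, young adult mice of both sexes were used in the study, the labels give neither age nor sex for a given sample, and no source states how many mice were behind each array, so p-values measure the spread between these samples. Values are log2 signals, on which a difference of 1 is a 2-fold difference in signal, and a level is compared only within a gene and never between genes, as each probeset binds with its own strength. A gene was called where the Benjamini-Hochberg adjusted p of limma, a linear model fitted to all genes, was under 0.01 and the log2 difference was over 1 in either direction. In RNA from a sorted population, fewer cells of a type and less RNA per cell cannot be told apart.

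IRF proteins are transcription factors that share a DNA-binding domain and recognise the interferon-stimulated response element and related sites. Irf3 and Irf7 switch on type I interferon genes when pattern recognition receptors are triggered, Irf9 joins STAT proteins to carry the signal of the interferon receptor to the nucleus, Irf1 is induced by interferon-gamma and is opposed by Irf2, and Irf5 drives inflammatory cytokines. Irf4 and Irf8 act instead in the development of blood cells: Irf8 is needed for the conventional DCs of type 1 (cDC1) that cross-present antigen, and is abundant in plasmacytoid DCs, while Irf4 is used by conventional DCs of type 2 (cDC2) and by plasma cells.

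The promoters of Irf8 and Irf4, whose levels separated the populations most widely among the 8 members, are shown with those of Irf1 and Irf2, the other members with a motif match. Each window of 300 bases runs 5′ to 3′ on the gene's own strand, from 250 bases before the RefSeq start to 50 after it, on build GRCm38.p6. Capitals mark any match, on either strand, to 3 motifs: the core of the interferon-stimulated response element (GAAA, any 2 bases, GAAA), the interferon-gamma-activated site TTCNNNGAA, and the composite element (GGAA, any 2 bases, GAAA) at which an ETS factor such as PU.1 and Irf4 or Irf8 can bind together. The windows lie at chr8:120736108-120736407 for Irf8, chr13:30748983-30749282 for Irf4, chr11:53769764-53770063 for Irf1 and chr8:46739495-46739794 for Irf2, all on the + strand.
Irf8: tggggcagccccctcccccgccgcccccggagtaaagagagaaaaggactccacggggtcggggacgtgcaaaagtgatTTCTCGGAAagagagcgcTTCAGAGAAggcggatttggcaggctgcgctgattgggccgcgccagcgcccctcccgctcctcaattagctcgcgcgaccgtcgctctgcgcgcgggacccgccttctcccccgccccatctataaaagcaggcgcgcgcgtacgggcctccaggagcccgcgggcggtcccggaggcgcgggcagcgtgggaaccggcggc
Irf4: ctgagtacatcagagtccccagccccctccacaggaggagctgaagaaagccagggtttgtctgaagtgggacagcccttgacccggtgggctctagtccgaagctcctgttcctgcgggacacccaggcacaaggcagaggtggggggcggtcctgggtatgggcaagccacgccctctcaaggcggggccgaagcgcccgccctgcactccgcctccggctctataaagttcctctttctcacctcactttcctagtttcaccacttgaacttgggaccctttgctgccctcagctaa
Irf1: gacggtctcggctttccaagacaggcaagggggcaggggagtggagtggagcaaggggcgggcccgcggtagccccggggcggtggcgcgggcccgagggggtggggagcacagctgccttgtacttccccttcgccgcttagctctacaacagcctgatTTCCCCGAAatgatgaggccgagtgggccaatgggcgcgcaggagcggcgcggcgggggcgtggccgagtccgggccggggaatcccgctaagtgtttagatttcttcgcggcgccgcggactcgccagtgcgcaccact
Irf2: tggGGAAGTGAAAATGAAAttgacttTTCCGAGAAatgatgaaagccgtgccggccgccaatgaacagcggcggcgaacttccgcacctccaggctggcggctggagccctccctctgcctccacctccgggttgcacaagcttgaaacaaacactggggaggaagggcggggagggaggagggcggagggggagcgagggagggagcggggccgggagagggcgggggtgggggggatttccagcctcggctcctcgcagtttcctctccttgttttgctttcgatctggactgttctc

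The Irf8 window held 2 matches to the interferon-gamma-activated site, TTCTCGGAA and TTCAGAGAA, which began 171 and 153 bases before the start. The Irf1 window held 1, TTCCCCGAA, 90 bases before the start. The Irf2 window held 1 match to each motif, and there the composite GGAAGTGAAA and the response element core GAAAATGAAA overlapped. No match lay in the window of Irf4, Irf3, Irf5 or Irf7, in either window of Irf9, or in the second RefSeq window of Irf1 and of Irf8. Of 32851 promoter windows of this length in the RefSeq set, 3.44% held the response element core, 8.3% the interferon-gamma-activated site and 2.72% the composite element. These matches describe letters in a window and were not tied to any binding measurement.

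The genes that defined the sorts followed the labels. Itgae, which encodes CD103, averaged 10.38 and 10.90 in the CD103+ subsets, 7.84 and 8.76 in the CD103- subsets and 5.09 in macrophages. Itgam, which encodes CD11b, averaged 9.56 and 9.53 in the CD11b+ subsets, 10.24 in macrophages, 4.93 in the CD103+CD11b- and 6.64 in the CD103-CD11b- subset. Fcgr1, which encodes CD64, was 8.92 in macrophages and 4.80 or less in all DC means. By mean signals over marker lists, CD103-CD11b- DCs lay between the others for cDC1 markers (8.02 to 8.71, against 10.31 to 10.55 in CD103+CD11b- DCs and 5.91 to 6.64 in CD11b+ DCs) and for cDC2 markers (6.76 to 7.17, against 9.22 to 9.66 in CD11b+ DCs), and they carried the highest plasmacytoid DC (7.11 to 7.41) and plasma cell (9.10 to 9.95) list signals. On the macrophage list, CD103-CD11b+ DCs read 6.64 to 7.001, against 4.74 to 5.47 in the CD103+ subsets and 9.96 to 10.2 in macrophages. CD103-CD11b- DCs read 6.49, 4.93 and 5.05 on it. Between the CD103- subsets limma called 0 of its 7 measured genes, while 6 had an unadjusted p under 0.05. Its complement genes C1qa, C1qb and C1qc were called between CD103-CD11b+ DCs and each CD103+ subset, with the lower signal in the CD103+ cells. The conventional DC list was 8.78 to 9.22 on DC arrays and 6.34 to 6.40 on macrophage arrays, and the B cell and T cell lists were 6.12 or less on every array. Still, 2 of 5 measured B cell genes (Cd79a and Cd79b) and 2 of 4 T cell genes (Cd2 and Cd3g) were called in at least 1 pair. Cd79a and Cd79b were called higher in CD103-CD11b- DCs and Cd79b in macrophages than in both CD103+ subsets. Pancreatic acinar genes, which no sorted population should express, varied from 4.68 to 8.72 between arrays of the same populations. The medians of all probesets were 4.74 to 4.86 on the 15 arrays.

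Irf8 and Irf4 had the widest ranges of population means among the members, 4.05 and 3.29 log2 units, against a median range of 0.28 over all genes. Irf8 was highest in CD103+CD11b- DCs and lowest in CD103+CD11b+ DCs, a 16.6-fold difference. Irf4 ran the other way in those 2 subsets and was 9.80-fold higher in CD103+CD11b+ DCs. Irf7 followed with a range of 2.04 and Irf1 with 1.09, whereas the ranges of Irf9 (0.85), Irf5 (0.72), Irf2 (0.29) and Irf3 (0.22) stayed under the fold threshold. Of all genes, 11.6% had a range over 1.

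**Figure D1:**
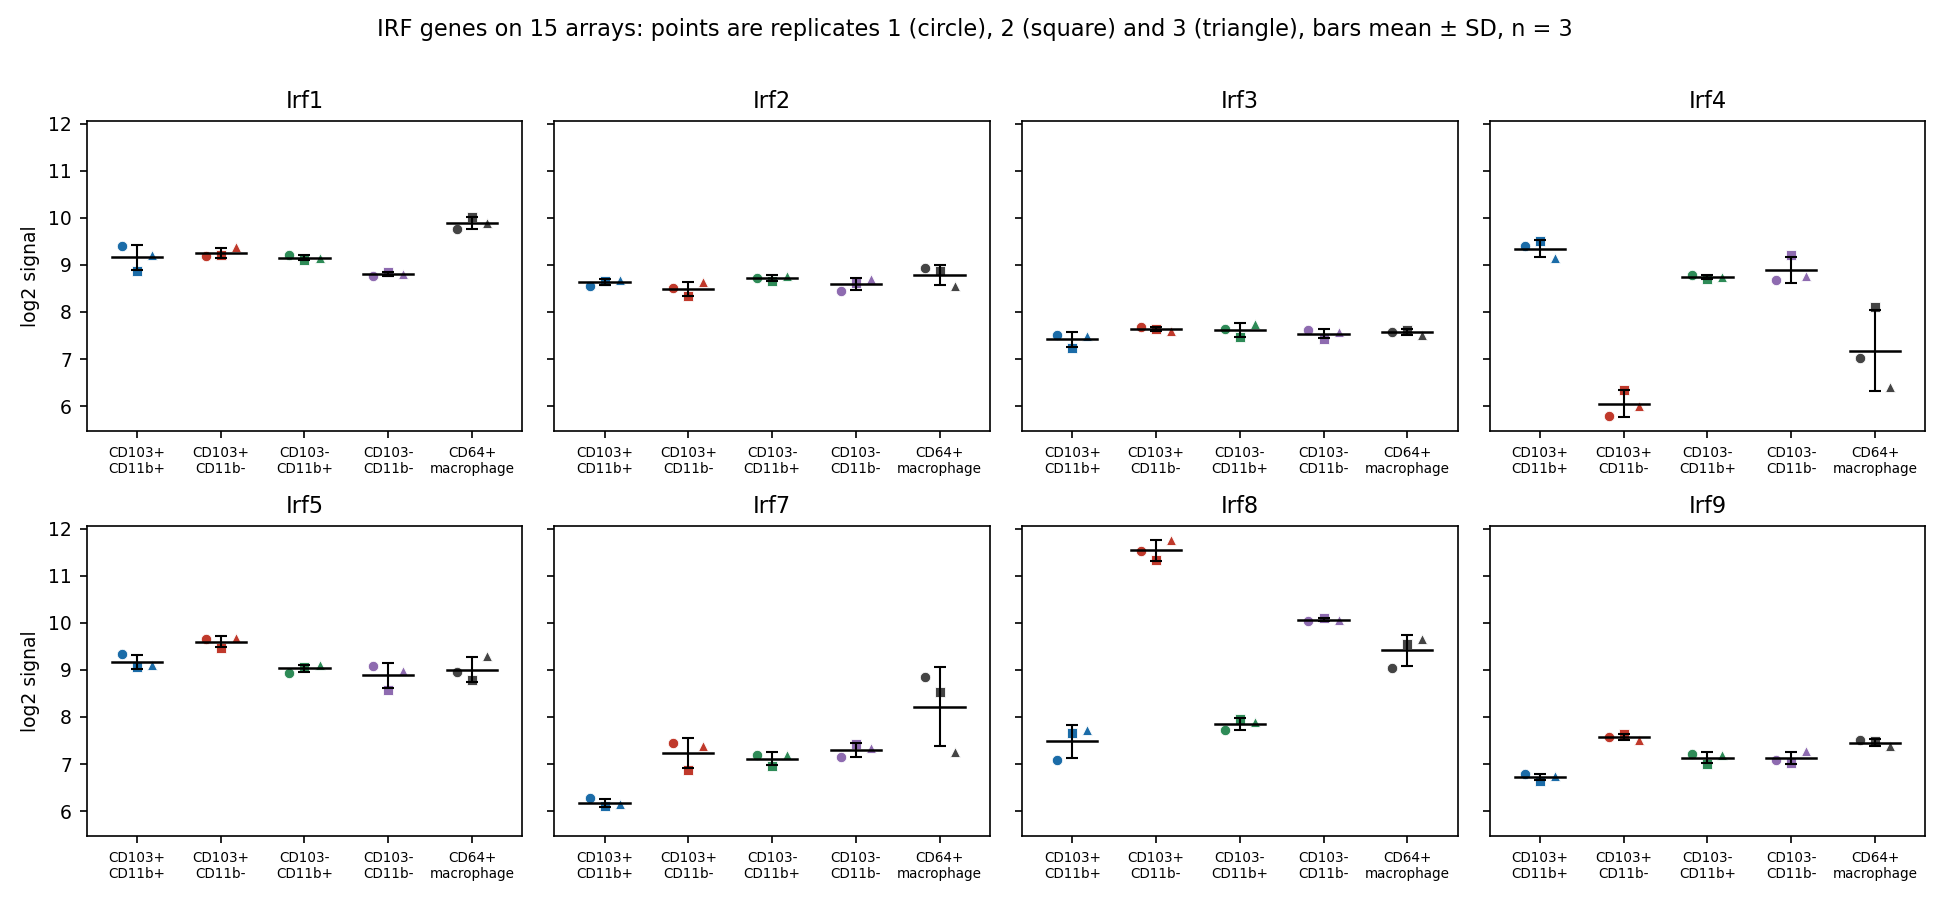
Log2 signal of each IRF gene (vertical axis) on the 3 arrays of each population (horizontal axis). Circles, squares and triangles are replicates 1, 2 and 3, and bars show the mean ± SD, n = 3. Irf8 spans 7.08 to 11.8 and Irf4 5.79 to 9.50 over the arrays, while Irf2 and Irf3 stay nearly level.

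Over the 5 populations, a moderated F test called 4 of the 8 members, Irf1, Irf4, Irf7 and Irf8, where 10.7% of all genes were called. The same 4 were called in at least 1 of the 10 pairwise comparisons, as were 11% of all genes. These 4 made up 17 calls out of 80 combinations of member and pair: 8 for Irf8, 6 for Irf4, 2 for Irf7 and 1 for Irf1. Irf5 and Irf9 passed the adjusted p of the F test (0.00969 and 2.28e-05) but not the fold, and Irf2 and Irf3 passed neither (0.315 and 0.421).

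Irf8 (probeset 10576034), the cDC1 and plasmacytoid DC factor, was bright in both subsets that lack CD11b. It read 11.52, 11.33 and 11.76 in CD103+CD11b- DCs and 10.05, 10.11 and 10.05 in CD103-CD11b- DCs. It read 9.04, 9.54 and 9.66 in macrophages, 7.72, 7.96 and 7.89 in CD103-CD11b+ DCs and 7.08, 7.66 and 7.72 in CD103+CD11b+ DCs. No array of any population overlapped with an array of another, although the nearest arrays of the CD11b+ subsets both rounded to 7.72, and the order of means was 11.54 ± 0.22, 10.07 ± 0.03, 9.42 ± 0.33, 7.85 ± 0.12 and 7.48 ± 0.35 (SD, n = 3).

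All but 2 of the 10 pairs passed for Irf8. CD103-CD11b- DCs were 2.77-fold lower than CD103+CD11b- DCs (log2 difference -1.47, SE 0.18, adjusted p = 5.27e-05) yet 5.99-fold higher than CD103+CD11b+ DCs (2.58, SE 0.18, adjusted p = 5.14e-07) and 4.63-fold higher than CD103-CD11b+ DCs (2.21, SE 0.18, adjusted p = 5.56e-06). Macrophages were 3.81-fold higher than CD103+CD11b+ DCs (adjusted p = 1.10e-06) and 2.95-fold higher than CD103-CD11b+ DCs (adjusted p = 1.26e-05). The neighbours that did not pass were macrophages against CD103-CD11b- DCs (-0.65, SE 0.18, adjusted p = 0.0152) and CD103+CD11b+ against CD103-CD11b+ DCs (-0.37, SE 0.17, adjusted p = 0.399).

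Irf4 (probeset 10404389), the cDC2 and plasma cell factor, was low in one DC subset and high in the other 3. It read 5.79, 6.35 and 6.01 in CD103+CD11b- DCs, against 9.39, 9.50 and 9.14 in the CD103+CD11b+ subset, 8.79, 8.70 and 8.75 in the CD103-CD11b+ subset and 8.68, 9.20 and 8.77 in the CD103-CD11b- subset. In macrophages it read 7.02, 8.11 and 6.40, between that low subset and the others, and the SD of 0.86 was the largest of any member in any population. The arrays of CD103-CD11b- DCs overlapped with those of both CD11b+ subsets, and the macrophage arrays overlapped with none.

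For Irf4, CD103+CD11b- DCs were exceeded 9.80-fold by CD103+CD11b+ DCs (3.29, SE 0.14, adjusted p = 6.06e-08), 7.13-fold by CD103-CD11b- DCs (2.83, SE 0.30, adjusted p = 1.63e-05) and 6.48-fold by CD103-CD11b+ DCs (2.70, SE 0.14, adjusted p = 2.76e-07). Macrophages were lower than CD103+CD11b+ DCs by 4.50-fold (adjusted p = 8.21e-05), than CD103-CD11b- DCs by 3.27-fold (adjusted p = 0.000649) and than CD103-CD11b+ DCs by 2.97-fold (adjusted p = 0.00155). Their difference from CD103+CD11b- DCs, 1.12 (SE 0.30), missed the adjusted threshold (adjusted p = 0.0132), and without the third macrophage array Irf4 was called there. With only the arrays of both populations in the fit, the macrophage differences from the CD103-CD11b+ and CD103-CD11b- subsets lost their call. Among the 3 high subsets no pair passed: CD103+CD11b+ against CD103-CD11b+ DCs gave 0.60 (adjusted p = 0.0484), CD103-CD11b- against CD103+CD11b+ DCs gave -0.46 (adjusted p = 0.522) and CD103-CD11b- against CD103-CD11b+ DCs gave 0.14 (adjusted p = 0.923).

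**Figure D2:**
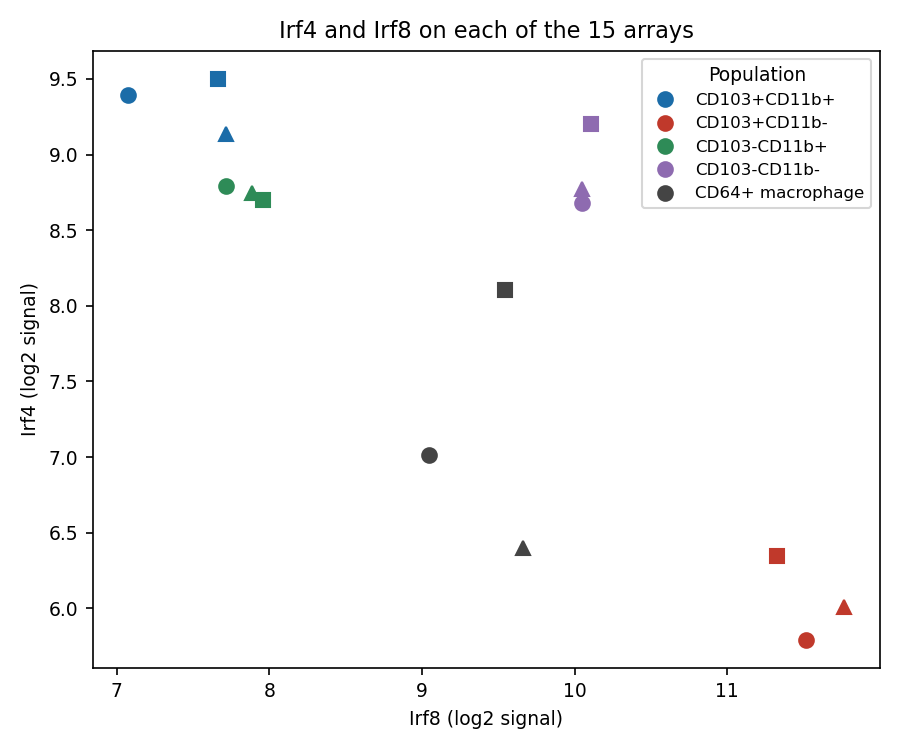
Irf4 (vertical axis) against Irf8 (horizontal axis), both in log2 signal, with 1 point for each of the 15 arrays coloured by population. CD103+CD11b- DCs lie at high Irf8 and low Irf4, both CD11b+ subsets at low Irf8 and high Irf4, and CD103-CD11b- DCs at 10.1 or less for Irf8 together with 8.68 or more for Irf4.

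CD103-CD11b- DCs thus carried RNA of both genes at once, with Irf8 at 10.07 ± 0.03 and Irf4 at 8.88 ± 0.28. The difference between CD11b+ and CD11b- subsets in each gene was unequal with and without CD103. This was tested by the interaction of both sort markers in the 15-array fit, which called 2 of the 8 members (1.97% of all genes were called). It compares sorted populations and does not measure an effect of CD11b or CD103 itself. For Irf4, the CD11b+ minus CD11b- difference was 3.29 with CD103 and -0.14 without it, a difference of 3.43 (SE 0.43, adjusted p = 0.000211). For Irf8, it was -4.05 with CD103 and -2.21 without it, a difference of -1.84 (SE 0.25, adjusted p = 0.000433). Neither passed a test against the fold threshold itself, and Irf8 missed the adjusted p (0.012, at -2.04) without the array of each population richest in acinar RNA. Irf9 had an interaction of -0.86 (SE 0.13, adjusted p = 0.000782), below the fold threshold.

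Plasma cells express Irf4 and plasmacytoid DCs express Irf8. The mean signals of both marker lists were highest in CD103-CD11b- DCs, although neither list followed Irf4 or Irf8 over all 5 populations. Within the plasma cell list, Prdm1 was instead called higher in macrophages than in each DC subset. Derl3, Mzb1, Sdc1 and Tnfrsf17 were called lower in macrophages than in CD103-CD11b- DCs. The plasma cell list, of which 6 of 7 measured genes were called in at least 1 pair, ranged from 9.10 to 9.95 in CD103-CD11b- DCs, 8.05 to 9.08 in macrophages, 7.97 to 8.70 in CD103-CD11b+ DCs, 7.66 to 8.06 in CD103+CD11b+ DCs and 6.93 to 7.11 in CD103+CD11b- DCs. Mzb1, a chaperone of antibody-secreting cells, read 7.90, 9.69 and 7.74 in macrophages and 9.75, 11.30 and 10.56 in CD103-CD11b- DCs. In both populations the second replicate had the highest Mzb1 and also the highest Irf4, whereas in CD103+CD11b+ DCs the second replicate had the highest Irf4 (9.50) and the lowest Mzb1 (7.53). Without the array of each population that was richest in the plasma cell list, Irf4 was 2.82 higher in CD103-CD11b- than in CD103+CD11b- DCs (adjusted p = 1.95e-05), and macrophages were lower than CD103+CD11b+ DCs by a log2 difference of -2.74 (adjusted p = 3.93e-06). The CD103-CD11b- arrays that remained still read 9.10 and 9.15 on that list, against 6.93 and 6.99 in CD103+CD11b- DCs. Leaving out the richest arrays thus did not remove plasma cell RNA.

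The plasmacytoid DC list had 6 measured genes, of which Siglech, Ly6d, Tcf4 and Ccr9 were called in at least 1 pair, and its signal was 7.11 to 7.41 in CD103-CD11b- DCs, 6.12 to 6.71 in macrophages and 5.77 to 6.41 in the other subsets. Siglech, the defining surface receptor, read 6.79, 6.20 and 5.84 in CD103-CD11b- DCs, 6.03, 6.43 and 5.52 in macrophages, and 4.13 to 5.11 in the others. Xcr1, the chemokine receptor of cDC1, read 8.84, 8.30 and 8.95 in CD103-CD11b- DCs, between 10.92 to 11.12 in CD103+CD11b- DCs and 5.52 to 6.80 in CD11b+ DCs. The macrophage list was 6.49 on the first CD103-CD11b- array and 4.93 and 5.05 on the other 2. On the CD103-CD11b+ arrays, where Irf4 and Irf8 were not called against CD103+CD11b+ DCs, that list was 6.95, 6.64 and 7.001. The part of these cells in the Irf4 and Irf8 levels was not tested.

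**Figure D3:**
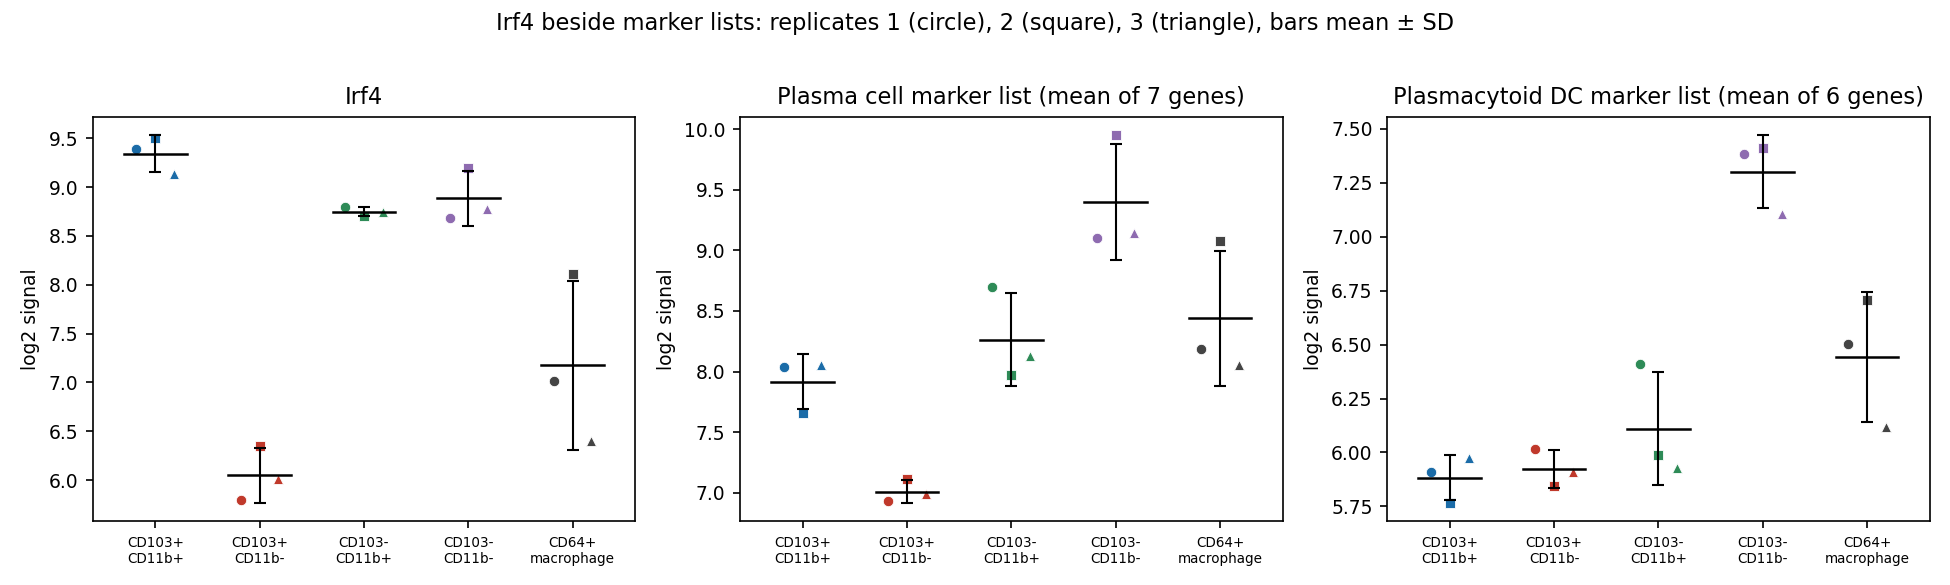
Log2 signal (vertical axes) of Irf4 and of the mean of the plasma cell and plasmacytoid DC marker lists on the 3 arrays of each population (horizontal axes). Circles, squares and triangles are replicates 1, 2 and 3, and bars show the mean ± SD. CD103-CD11b- DCs have the highest values of both lists, and the second macrophage array has the highest Irf4 (8.11) and plasma cell list (9.08) of its population.

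Irf7 (probeset 10569102), which amplifies type I interferon induction, was lowest in CD103+CD11b+ DCs and had its highest mean in macrophages. It read 6.27, 6.11 and 6.16 in CD103+CD11b+ DCs, below every other array of the series. It read 7.45, 6.86 and 7.39 in CD103+CD11b- DCs, 7.18, 6.96 and 7.19 in the CD103-CD11b+ subset, and 7.14, 7.43 and 7.34 in the CD103-CD11b- subset, which overlapped with each other. Macrophages read 8.85, 8.52 and 7.26, and the last of these arrays lay within the range of both CD11b- subsets.

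CD103+CD11b+ DCs were 2.08-fold lower than CD103+CD11b- DCs for Irf7 (-1.06, SE 0.14, adjusted p = 0.000403) and 4.10-fold lower than macrophages (macrophages higher by 2.04, SE 0.29, adjusted p = 9.84e-05). The first of these lost its call with either the first or the third CD103+CD11b- array left out, at -0.95 and -0.98, and also under cyclic loess, with all 15 arrays in one fit, under the adjusted test of the study's methods and in a test against the fold threshold itself, 6 of 24 alternatives in all. CD103+CD11b+ DCs were also lower than CD103-CD11b+ DCs by a log2 difference of -0.94 (SE 0.14, adjusted p = 0.00527), which fell short of the fold threshold, and CD103-CD11b- DCs exceeded them by 1.13 (SE 0.29), which missed the adjusted threshold (adjusted p = 0.0274). Macrophages differed from the other 3 subsets by 0.91 to 1.10 (adjusted p = 0.0144 to 0.0361). With the third macrophage array left out, they exceeded CD103+CD11b+ DCs by 2.51 (adjusted p = 6.97e-08), and Irf7 was also called between macrophages and CD103+CD11b- DCs and between the CD103-CD11b- and CD103+CD11b+ subsets.

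Irf9, the DNA-binding subunit of the interferon-stimulated gene factor 3 complex, had a small but orderly pattern. It read 7.56, 7.63 and 7.52 in CD103+CD11b- DCs, 7.50, 7.49 and 7.37 in macrophages, and 6.79, 6.65 and 6.74 in CD103+CD11b+ DCs. The other subsets overlapped between 7.01 and 7.27. CD103+CD11b+ DCs were lower than CD103+CD11b- DCs by a log2 difference of -0.85 (SE 0.08, adjusted p = 4.12e-05) and macrophages exceeded CD103+CD11b+ DCs by 0.73 (SE 0.09, adjusted p = 2.32e-05), both below the fold threshold. Macrophages and CD103+CD11b- DCs were neighbours in order, and although their arrays did not overlap, the difference did not pass (-0.12, adjusted p = 0.427).

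Irf3, the constitutive partner of Irf7 downstream of nucleic acid sensors, spanned 7.24 to 7.74 over the 15 arrays. Its means were 7.42 ± 0.15 in CD103+CD11b+ DCs, 7.54 ± 0.10 in the CD103-CD11b- subset, 7.57 ± 0.06 in macrophages, 7.62 ± 0.14 in the CD103-CD11b+ subset and 7.63 ± 0.04 in the CD103+CD11b- subset (SD, n = 3). Every neighbouring pair in this order overlapped, and no adjusted p was under 0.215. CD103+CD11b+ DCs had the lowest mean of Irf3, Irf7, Irf8 and Irf9, but none of these 4 genes was called against the next lowest population.

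Irf1 (probeset 10376060), the interferon-gamma-induced activator, was highest in macrophages. Macrophages read 9.76, 10.02 and 9.88, above every DC array. DC arrays read 9.40, 8.86 and 9.21 (CD103+CD11b+), 9.19, 9.20 and 9.38 (CD103+CD11b-), 9.21, 9.11 and 9.14 (CD103-CD11b+) and 8.75, 8.84 and 8.80 (CD103-CD11b-). On this probeset the last subset lay below the other DCs, without overlap.

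The difference between macrophages and CD103-CD11b- DCs was 1.09 (SE 0.12, 2.13-fold, adjusted p = 6.11e-06) and was the single call for Irf1. Macrophages exceeded the other 3 subsets by 0.63 to 0.73 (adjusted p = 0.000306 to 0.000902), below the fold threshold. Among DCs, CD103-CD11b- DCs were lower by log2 differences of -0.35 to -0.46 (adjusted p = 0.0203 to 0.147), and the remaining 3 subsets lay within 0.10 of each other. The second Irf1 probeset was dimmer and read 7.54, 8.25 and 7.73 in macrophages against 6.83 to 7.44 in DCs. With both probesets averaged, the Irf1 difference from CD103-CD11b- DCs was 0.95, just under the fold threshold.

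Irf2, the repressor that competes with Irf1 for DNA, had population means from 8.50 ± 0.15 in CD103+CD11b- DCs to 8.78 ± 0.21 in macrophages (SD, n = 3). All 4 pairs of neighbours overlapped, and the smallest adjusted p of any pair was 0.0841. Irf2bp2, a corepressor that binds Irf2, was called higher in macrophages (9.94 ± 0.16) than in CD103+CD11b- and CD103-CD11b- DCs, the single call among 3 measured genes of its kind.

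Irf5, the driver of inflammatory cytokines, was highest in CD103+CD11b- DCs. They read 9.66, 9.47 and 9.67, above all other arrays, which ran from 8.58 to 9.33. The differences from the other populations were -0.44 to -0.72 and all under the fold threshold, with adjusted p = 0.00218 for the CD103-CD11b+ subset, 0.00417 for the CD103-CD11b- subset, 0.00653 for macrophages and 0.0111 for the CD103+CD11b+ subset. The other 4 populations overlapped with one another.

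**Figure D4:**
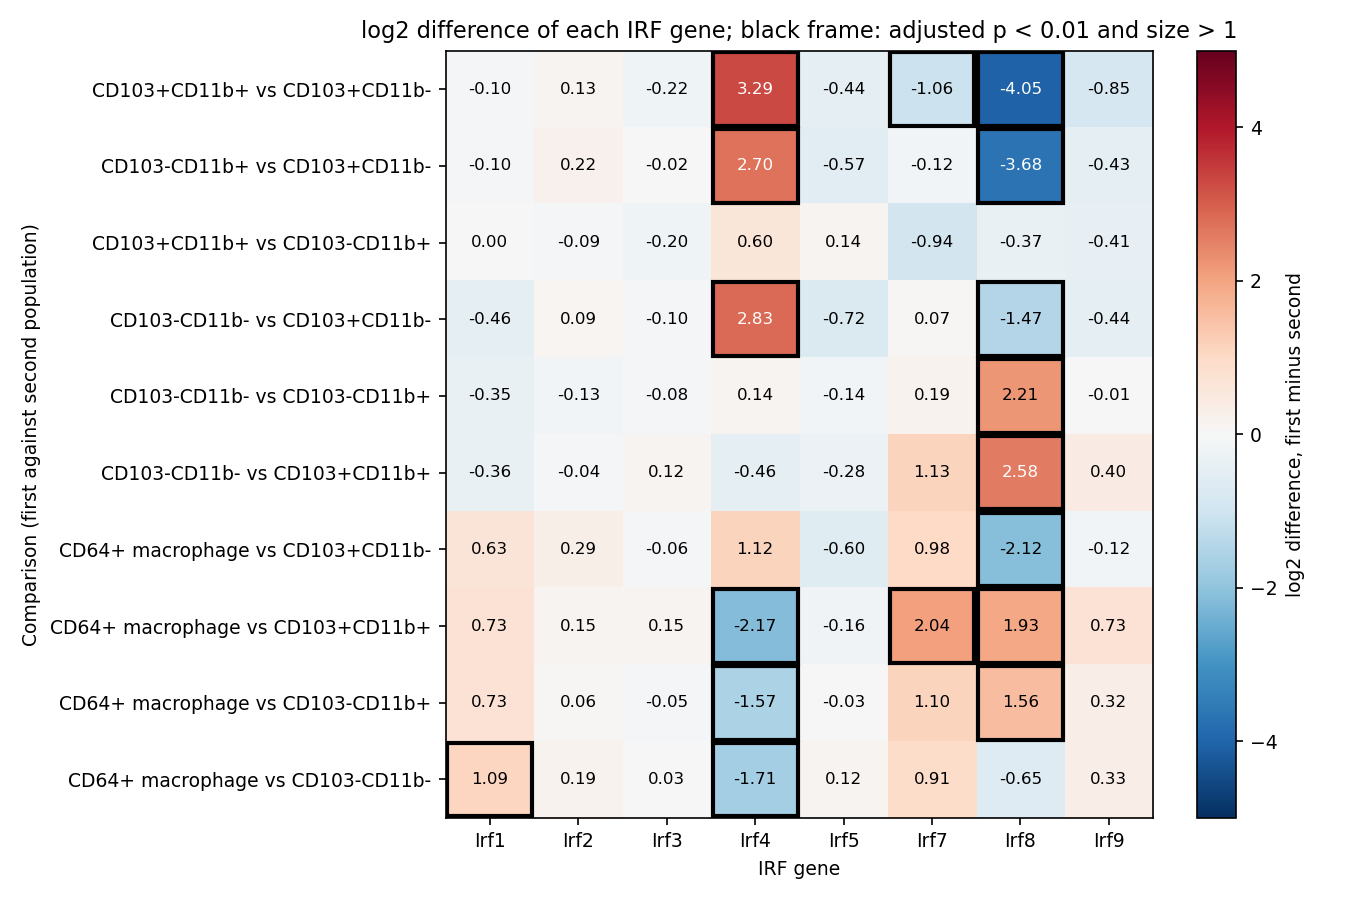
Log2 difference of each IRF gene (columns) in the 10 pairwise comparisons (rows), given as the first population minus the second, in colour and in figures. Black frames mark calls (adjusted p under 0.01 and size over 1), of which 8 lie in the Irf8 and 6 in the Irf4 column.

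By comparison, the members called were 3 of 8 for CD103+CD11b+ against CD103+CD11b- DCs (Irf4 higher, Irf7 and Irf8 lower), where 3.28% of all genes were called. They were 2 for CD103-CD11b+ against CD103+CD11b- DCs (3.32% of all genes), with Irf4 higher and Irf8 lower, and the same 2 genes moved the same way for CD103-CD11b- against CD103+CD11b- DCs (2.66%). The CD103-CD11b- subset differed from CD103-CD11b+ DCs (0.808%) and from CD103+CD11b+ DCs (1.93%) in Irf8 alone among the members. Between both CD11b+ subsets limma called no member, while 4 had an unadjusted p under 0.05 and 0.537% of all genes were called. These 4 were Irf4, higher in CD103+CD11b+ DCs, and Irf7, Irf8 and Irf9, lower there. Member differences ran from -0.94 to 0.60, so no test could call one at this fold.

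Macrophages differed from CD103+CD11b- DCs in 1 member, Irf8 (7.03% of all genes were called), from CD103+CD11b+ DCs in 3, Irf4, Irf7 and Irf8 (5.68%), from CD103-CD11b+ DCs in 2, Irf4 and Irf8 (5.18%), and from CD103-CD11b- DCs in 2, Irf1 and Irf4 (6.3%). All comparisons with one population share its arrays. The median difference of the 8 members ran from -0.33, for CD103+CD11b+ against CD103+CD11b- DCs, to 0.44, for macrophages against CD103+CD11b+ DCs, where the medians of all genes were 0.03 and -0.01.

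The genes around the IRFs were described through lists. Of 10 measured partners that bind DNA with IRFs, 4 were called in at least 1 pair. Spib, an ETS factor that pairs with Irf4 and Irf8, averaged 7.17 ± 0.43 in CD103-CD11b- DCs, 6.21 ± 0.04 in the CD103-CD11b+ subset, 5.54 ± 0.20 in the CD103+CD11b+ subset, 4.87 ± 0.29 in macrophages and 4.40 ± 0.15 in the CD103+CD11b- subset. Batf2 was highest in macrophages (8.23 ± 0.58) and lowest in CD103-CD11b- DCs (5.62 ± 0.14), and Spic and Junb were the others. Batf3, Batf, Spi1, which encodes PU.1, Jun, Jund and Stat2 were called in no pair, and Batf3 means lay between 8.97 and 9.50.

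Of 21 sensors and adaptors that act upstream of Irf3, Irf5 and Irf7, 13 were called in at least 1 pair. Tlr7, an endosomal receptor of RNA, read 8.77, 8.11 and 8.41 in macrophages and 3.44 to 4.06 in all DC arrays, which is below the array medians, so that no fold is given. Tlr4 and Tlr8 were likewise higher in macrophages than in each DC subset. Tlr3, the receptor of double-stranded RNA, followed the cDC1 markers, to whose list it also belongs, with 10.71 ± 0.06 in the CD103+CD11b- and 9.32 ± 0.49 in the CD103-CD11b- subset against 6.49 to 7.22 in the other means. Macrophages exceeded CD103+CD11b+ DCs in 6 of these genes, with a list median of 0.73 against -0.01 over all genes, whereas Myd88, Mavs, Traf6, Tbk1, Irak1, Cgas, Ticam1 and Slc15a4 were called in no pair.

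The interferon genes themselves were dim. None of 14 measured was called by limma in any comparison, with 0 to 4 of them at an unadjusted p under 0.05 in a given pair, and their mean signal was 4.26 to 4.51 on every array, below the array medians. Of 13 receptor and JAK-STAT genes, 6 were called in at least 1 pair. Macrophages had more Ifnar2, a chain of the type I interferon receptor, than each DC subset (9.97 ± 0.20 against means of 8.35 to 8.77), and less Jak2 (7.65 ± 0.22 against 9.77 to 9.93). Socs3, a feedback inhibitor of cytokine signals, was 9.62 ± 0.31 in macrophages and 8.75 ± 0.06 in CD103-CD11b+ DCs, against 6.90 to 7.56 in the other subsets.

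Targets of the complexes that Irf9 forms with STAT proteins were set beside Irf9 and Irf7. Of 20 measured, 18 were called in at least 1 pair, and none between both CD11b+ subsets (11 at an unadjusted p under 0.05). The mean over the list was 7.84 to 8.26 in macrophages, 6.96 to 7.24 in CD103-CD11b+ DCs, 6.84 to 6.90 in CD103+CD11b+ DCs, 6.44 to 6.59 in CD103-CD11b- DCs and 6.30 to 6.40 in CD103+CD11b- DCs. CD103+CD11b- DCs, with the highest mean of Irf9, had the lowest list mean, and CD103+CD11b+ DCs, with the lowest Irf9 and Irf7, had a higher list mean than CD103+CD11b- DCs. In that comparison 6 targets were higher in CD103+CD11b+ DCs, Oasl1 was lower, and the list median was 0.54 against 0.03 over all genes.

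Rtp4 showed the pattern most widely: it averaged 9.29 ± 0.28 in macrophages, 7.51 ± 0.29 in the CD103-CD11b+ subset, 6.76 ± 0.06 in the CD103+CD11b+ subset, 5.40 ± 0.43 in the CD103-CD11b- subset and 4.36 ± 0.30 in the CD103+CD11b- subset (SD, n = 3). Ifit3, Oas1a and Oas2, antiviral effectors, were also higher in macrophages than in each DC subset. Against CD103+CD11b- DCs, 13 of 20 targets were called higher in macrophages and Ifi35 lower. Against CD103+CD11b+ DCs, 14 were called higher and Trim25 lower. The macrophage list was 6.64 to 7.001 in CD103-CD11b+ DCs, and its part in the interferon target values of that subset was not tested. In macrophages the third array had the lowest Irf7 (7.26) and the lowest list mean (7.84). Usp18 and Eif2ak2 were called in no pair.

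**Figure D5:**
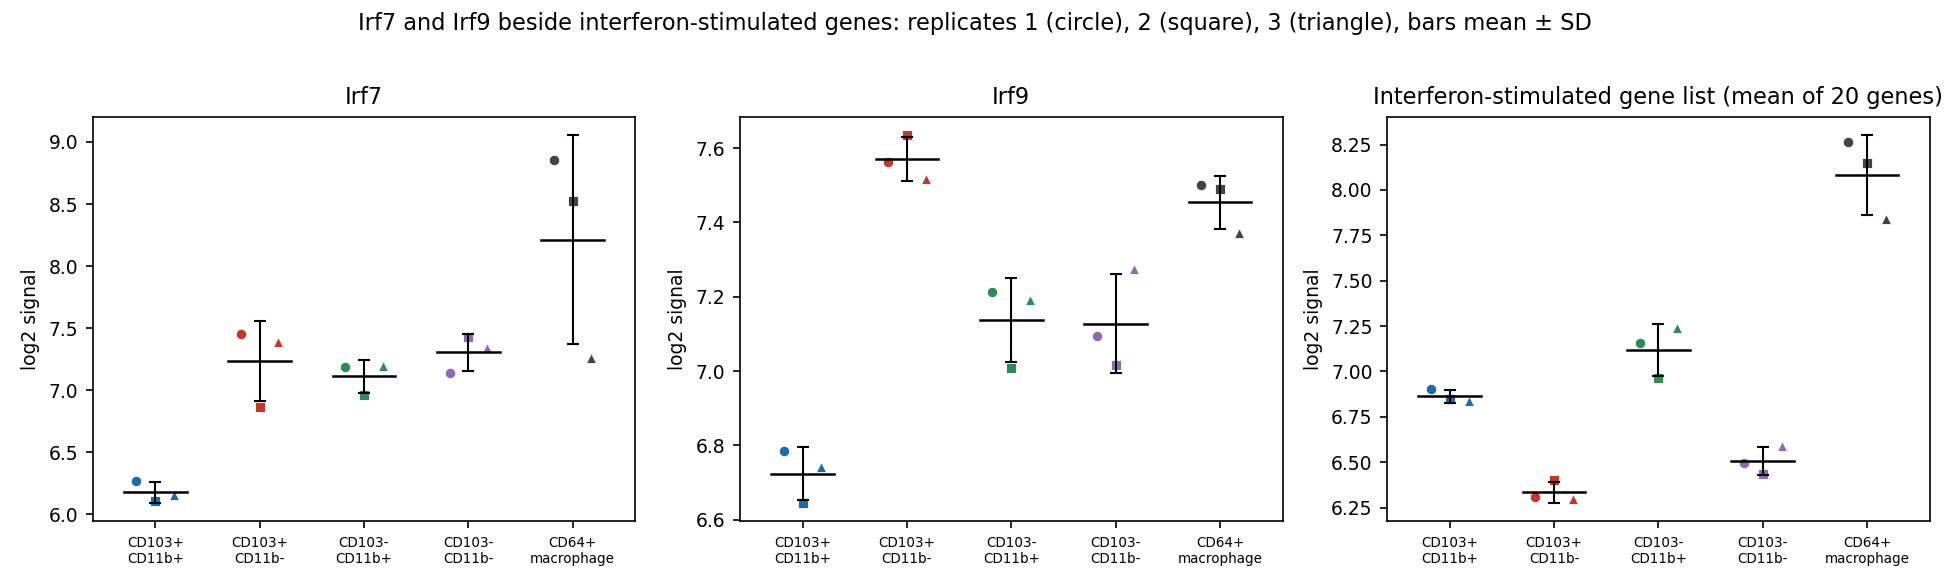
Log2 signal (vertical axes) of Irf7, Irf9 and the mean of 20 interferon-stimulated genes on the 3 arrays of each population (horizontal axes). Circles, squares and triangles are replicates 1, 2 and 3, and bars show the mean ± SD. Irf9 is highest and the list mean lowest in CD103+CD11b- DCs.

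Of 16 measured genes induced by Irf1 or interferon-gamma, 9 were called in at least 1 pair. The list mean was 8.96 to 9.30 in macrophages, where Irf1 was highest, and 7.92 to 8.18 in CD103-CD11b- DCs, where Irf1 was lowest. It was 8.14 to 8.25 in CD103+CD11b- DCs, which had the second highest mean of Irf1, and 8.34 to 8.59 in both CD11b+ subsets. The list median ran the other way, at -0.12 for CD103+CD11b+ and -0.18 for CD103-CD11b+ against CD103+CD11b- DCs. Over all genes these medians were 0.03 and 0.04. In both comparisons 5 genes were called higher in the CD11b+ cells (Casp1, Cd274, Gbp3, Gbp4 and Gbp7), and Cxcl9 and Il15 were called lower. Gbp7, a guanylate-binding protein, averaged 9.18 ± 0.25 in macrophages, 7.40 ± 0.23 in the CD103+CD11b+ subset, 6.99 ± 0.12 in the CD103-CD11b+ subset, 5.95 ± 0.19 in the CD103-CD11b- subset and 4.63 ± 0.19 in the CD103+CD11b- subset, whose Irf1 arrays overlapped with those of both CD11b+ subsets. Il15 ran otherwise, with 8.24 ± 0.16 in macrophages, 7.33 ± 0.04 in CD103+CD11b- DCs and 5.58 to 6.03 in the other means. The antigen presentation genes Psmb8, Psmb9, Psmb10, Tap2, Nlrc5 and Ciita were called in no pair, nor was Irgm1. Tap1, another antigen presentation gene, was called lower in CD103+CD11b+ DCs and in macrophages than in CD103+CD11b- DCs, and by the interaction.

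Of 7 cytokine genes linked to Irf5, 5 were called in at least 1 pair, and their list mean was 6.21 in CD103+CD11b- DCs, where Irf5 was highest, 6.23 in CD103-CD11b- DCs and 6.60 to 6.88 in the other populations. Il12b, a subunit of interleukin-12, was 7.37 ± 0.43 in CD103+CD11b- DCs against 5.05 to 5.52 in the other means, whereas Il1a, Il1b and Il6 were called lower there than in both CD11b+ subsets. Il1b and Il1a were lowest in CD103+CD11b- and CD103-CD11b- DCs, respectively, and Tnf was lowest in CD103-CD11b- DCs (7.16 ± 0.16 against 8.33 to 9.28). Of 16 DC lineage transcription factors, 9 were called in at least 1 pair. Zeb2 was lowest in CD103+CD11b- DCs (4.79 ± 0.26) and highest in macrophages (9.53 ± 0.03), and Id2, which is needed for cDC1, was highest in the former (10.09 ± 0.03) and lowest in the latter (7.51 ± 0.38).

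The genes most like each called member were found as those with the smallest root mean square difference from it over the 15 arrays, after each was centred on its own mean, among 2133 others called by the F test. For Irf8 these were Cxcr3 (0.33), Cd36 (0.43) and Agpat3 (0.57), and for Irf4 they were Cd69 (0.28), Stat4 (0.39) and Gm614 (0.41). Cd69, an activation antigen, averaged 6.73 in CD103+CD11b- DCs, 8.08 in macrophages and 9.37 to 9.56 in the other subsets. For Irf7 these were Trim30d (0.37), Slfn5 (0.37) and Uap1l1 (0.40), and for Irf1 they were Rnf169, Lrrc49 and Unc93b1 (0.16 to 0.17), the last of which carries endosomal Toll-like receptors to their compartment. Among the members themselves, Irf4 and Irf8 were the least alike (2.61) and Irf2 and Irf3 the most alike (0.19). The measure is not scaled to the spread of a gene, so level genes such as Irf2 and Irf3 come out close whatever their patterns.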

How the data were processed

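The deposited values were log2 signals of Affymetrix Mouse Gene 1.0 ST arrays. Per the methods, the authors amplified total RNA with a NuGEN whole-transcriptome kit and processed the scans with Robust Multi-array Average, which corrects background, summarises probesets, takes log2 and makes arrays alike by quantile normalization. That step assumes that most genes do not differ and removes differences in total RNA. Detection calls, raw scans and scan dates were not used here.

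Of 35556 probesets, the platform annotation gave 21789 a single symbol, 1621 several and 12146 none. The single-symbol probeset with the highest mean was kept per gene (999 genes had more than 1), leaving 19938 genes. Groups came from sample titles.

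Moderated tests over all genes came from limma 3.58.1 (R 4.3.3), with Benjamini-Hochberg adjustment and a call below 0.01 where the log2 difference was larger than 1. The 3 comparisons that leave out CD103-CD11b- DCs and macrophages used 9 arrays, and the other 7, the interaction and the F test used all 15. The procedure was tested on simulated data. Promoters and motifs came from RefSeq (GRCm38.p6), where all 8 members matched. Figures used Python 3.11.15 and matplotlib 3.10.9.

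The members and lists were chosen with earlier results of these data known. Named were all members, the sort genes, up to 4 called genes per list with the widest range of population means, and the 3 genes most like each called member. Other list genes are named where a count is spelled out, which was decided after their values were seen. Alternatives changed the probeset rule, normalization, filter, thresholds, weights, samples and test.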

Additional observations from a re-analysis of the deposited data

Results flagged for a closer look

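The CD11b difference of 2 members differed between subsets with and without CD103, by the interaction test of limma. For Irf4, the CD11b+ minus CD11b- difference was larger by 3.43 log2 units in CD103+ than in CD103- DCs (adjusted p = 0.000211). For Irf8 it was more negative, by -1.84 (adjusted p = 0.000433). Both rest on CD103-CD11b- DCs, whose arrays also carried plasmacytoid DC, plasma cell and cDC1 markers, and the part of those cells was not tested.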

How the results depend on the processing

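The 19 differences of a member called above (17 pairs and 2 interactions) were recomputed 520 times in all, of which 497 kept the call, 23 lost it and none turned its direction. The number of members called moved by over 1.5 times in these cases. For macrophages against CD103+CD11b- DCs it went from 1 to 2 under cyclic loess, without dim genes, with array weights, at an adjusted p under 0.05 and with a replicate block. For CD103-CD11b- against CD103+CD11b+ DCs it went from 1 to 2, through Irf7, with array weights, at an adjusted p under 0.05, with the arrays of both populations alone and under a t-test with or without adjustment. For macrophages against CD103-CD11b- DCs it fell from 2 to 1 with probesets averaged. A test against the fold threshold itself (treat) left 1 member for CD103-CD11b- against CD103+CD11b- DCs and for macrophages against CD103+CD11b+ DCs, and 0 for macrophages against CD103-CD11b+ or CD103-CD11b- DCs and for the interaction. With the arrays of both populations alone, or an adjusted t-test, macrophages differed from CD103-CD11b+ and from CD103-CD11b- DCs in 1 member each, and under the t-test from CD103+CD11b+ DCs in 1. The causes were not tested. Without the array of each population richest in acinar RNA, the interaction called 1 member, as Irf8 had -2.04 with an adjusted p of 0.012 (-1.64 to -2.15 over its alternatives).

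Leaving out 1 array at a time gave 1 to 2 members for CD103-CD11b- against CD103+CD11b+ DCs and 1 to 3 for macrophages against CD103+CD11b- DCs, the higher counts without the third macrophage array. Replicate numbers were shared by groups, and 18 of 30 same-numbered pairs of arrays had correlated deviations over 0.1 (mean 0.12, lowest -0.09). Pairs with other numbers had a mean of -0.06. As deviations were taken from the mean of each population's 3 arrays, that value largely follows from the first and is no separate comparison. By the same-number mean alone, arrays of the same number were somewhat more alike. What they share is not stated and was not tested, and the numbers were left out of the main fit. Fitted as a replicate block, they changed no call but that of Irf4 in macrophages against CD103+CD11b- DCs, where 2 members then passed.

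Over all genes, treat cut the 107 to 1401 calls per pair to 9 to 616 and the 393 interaction calls to 33. The adjusted t-test left 1 of 107, 7 of 161, 85 of 384, 241 of 530, 633 of 1033 and 736 of 1256. Without the acinar-rich arrays, 10 of 107, 91 of 161 and 202 of 393 remained in number, and without the plasma cell-rich arrays, an alternative chosen after seeing the data like the unadjusted t-test, 49 of 107. For both CD11b+ subsets 66 and 59 were called without the first CD103+CD11b+ or the third CD103-CD11b+ array. With 3 arrays per population, differences near the fold threshold, such as those of Irf7 and Irf9, could not be settled, and no detection limit was available for dim genes.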
